A study of Homo sapiens with 12 samples.

Results

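The small heat shock protein genes HSPB1, CRYAB and HSPB8, the BAG family genes BAG1 to BAG6 and the collagen chaperone gene SERPINH1 were followed through 12 RNA libraries of T47D cells. The list of 10 genes was set by gene name, with earlier results of these data known. Each was found under 1 Ensembl identifier among the 57773 genes of each count file, and 10 of 10 had enough counts to enter the tests, which covered 14714 genes. T47D is an estrogen receptor-positive luminal breast cancer line, and the cells carried an inducible short hairpin RNA (shRNA) against PSMD2, which encodes a subunit of the proteasome's 19S cap. Lo19S cells had the hairpin induced with 0.2 µg/ml doxycycline for 3 days and then spent 24 h without it, while control cells carried the same hairpin uninduced. Both states were then given DMSO or 20 nM bortezomib, an inhibitor of the proteasome's catalytic core, for 16 h, which makes 4 groups of 3 libraries. Both Lo19S groups and neither control group had met doxycycline, so effects of doxycycline, of the hairpin and of the reduced 19S particle cannot be told apart. The labels give no clone number for the line and do not say whether replicates were separate cultures, so a p-value reflects only how far these libraries spread.

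Small heat shock proteins bind unfolding proteins without using ATP and hold them in a state from which HSP70 can refold them. Most BAG proteins share a domain that docks on HSP70 and makes it release its client. They carry other domains that send the client onward, to the proteasome, to autophagy or to membranes. BAG3 joins HSPB8, HSP70 and the ubiquitin ligase CHIP (gene STUB1) in chaperone-assisted selective autophagy, a route that cells use when aggregating proteins outrun the proteasome. SERPINH1, also called HSP47, folds procollagen in the endoplasmic reticulum and, like HSPB1, CRYAB and BAG3, is a classic target of the heat shock factor HSF1.

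Library totals ran from 7376597 to 15003480 counts. The knockdown target PSMD2 was lower in Lo19S than in control cells under DMSO (log2 fold change -1.13, SE 0.035) and under bortezomib (-1.48, SE 0.033), in the direction the labels give. One library, control DMSO replicate 3, was unlike its fellows: counts differed from those of replicates 1 and 2 with chi-square values of 3.64 and 3.99 per degree of freedom, while other pairs of replicates gave 1.15 to 1.90. Results that rest on it are given with and without it where it matters. Levels are given as CPM, the counts of a gene relative to the library's depth after the TMM (trimmed mean of M-values) scaling of edgeR. All 12 luminal epithelial markers were detected, and their summed level was 7302 to 7451 CPM in control cells with DMSO and 6547 to 6670 in Lo19S cells with DMSO. It was 3969 to 4051 in control cells and 3946 to 4134 in Lo19S cells with bortezomib, so the 2 bortezomib groups overlapped. Summed markers of leukocytes stayed between 1.08 and 3.07 CPM and those of endothelial cells between 2.78 and 8.18 CPM, with CD3D and CD3E at 0 in all 12 libraries. Summed basal and myoepithelial markers were lower in Lo19S than in control cells, at 39.8 to 41.4 against 57.1 to 61.6 CPM with DMSO. With bortezomib the sums were 42.3 to 45.9 against 52.4 to 55.01 CPM. Under DMSO 4 of 5 tested were called lower, beside 13% of all genes tested. Under bortezomib 1 of the 5 was called lower, beside 21.2% of all genes, and 4 were not called. Fibroblast markers summed to 26.0 to 31.4 CPM in control cells and 33.0 to 33.8 in Lo19S cells with DMSO. With bortezomib they summed to 63.5 to 69.8 in control cells and 44.3 to 47.1 in Lo19S cells. These sums were mostly COL1A1, while 7 of the 9 were too low to test. The luminal, basal and fibroblast sums each moved with bortezomib in both states. Each sum also differed between Lo19S and control cells, except the luminal sum under bortezomib. Some luminal markers did differ there: of 12 tested, 6 were called higher and 3 lower in Lo19S cells, beside 22% and 21.2% of all genes. With bortezomib 9 of the 12 were called lower and 3 higher in control cells, beside 42.2% and 39.2% of all genes. In Lo19S cells the counts were also 9 and 3, beside 39.7% and 37.8%. The part of these sums in the results was not tested. In bulk RNA, fewer cells of a type and less RNA per cell cannot be told apart.

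The genes were identified in the files as ENSG00000106211 (HSPB1), ENSG00000109846 (CRYAB), ENSG00000152137 (HSPB8), ENSG00000107262 (BAG1), ENSG00000112208 (BAG2), ENSG00000151929 (BAG3), ENSG00000156735 (BAG4), ENSG00000166170 (BAG5), ENSG00000204463 (BAG6) and ENSG00000149257 (SERPINH1). Per kilobase of annotated exon, a scale that allows levels of different genes to be set side by side, HSPB1 was the highest of the 10 genes in all 4 groups and HSPB8 the second. In control cells with DMSO, HSPB1 was at a mean of 528 CPM per kilobase, HSPB8 at 80.4, BAG6 at 49.3 and SERPINH1 at 38.9. BAG5 (16.5), BAG3 (14.5) and BAG1 (10.8) followed, then BAG2 (3.51) and BAG4 (3.37), whose library ranges overlapped. CRYAB was last, at 0.234 CPM per kilobase. With bortezomib BAG3 took the third place in both states, at 727 CPM per kilobase in control cells and 239 in Lo19S cells, and CRYAB rose to the sixth place in control cells (46.5) and the ninth in Lo19S cells (7.98). BAG4 was last in both bortezomib groups. Together the 10 genes held 0.190% to 0.229% of all counts in the DMSO libraries, 1.10% to 1.13% in control cells with bortezomib and 0.594% to 0.648% in Lo19S cells with bortezomib.

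**Figure D1:**
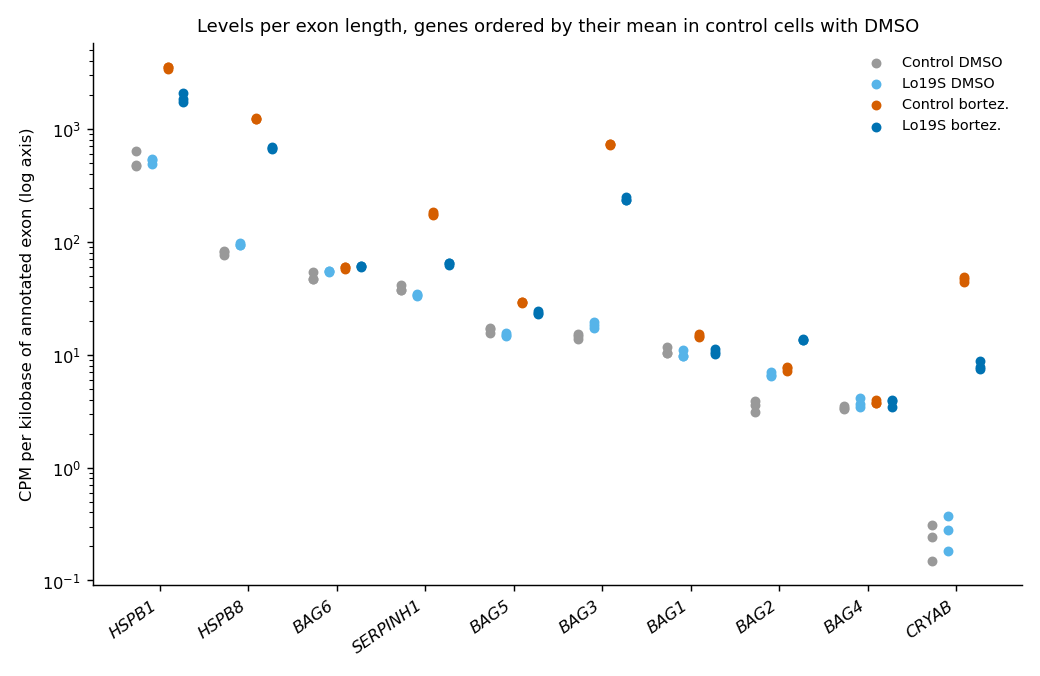
Level of each of the 10 genes in each of the 12 libraries, in CPM per kilobase of annotated exon on a log axis, with genes ordered by their mean in control cells with DMSO and 1 point per library. HSPB1 lies highest in all 4 groups, and CRYAB lies lowest with DMSO but overtakes BAG1, BAG2, BAG4 and BAG5 in control cells with bortezomib.

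Because several of these genes move together and are known heat shock factor targets, their promoters were searched for the letters that the factor binds, inverted repeats of GAA spaced by a pair of free bases. A RefSeq table of build GRCh38.p14 gave 250 bases upstream of the start for 8 of the 10 genes, in 11 windows; none was given for CRYAB and BAG4. The letters GAANNTTC or TTCNNGAA, where N is any base, stood in 11.6% of all 35116 windows of that length, and the longer runs GAANNTTCNNGAA or TTCNNGAANNTTC in 0.441%. Each of these patterns reads the same, or as its partner, on the other strand, and a long run always holds the short ones. The short pattern was present for 4 of the 8 genes, HSPB1, HSPB8, BAG2 and SERPINH1, and the long run for SERPINH1 alone. Counted by window, the unit of those shares, the short pattern stood in 4 of 11, and the other SERPINH1 window held neither pattern. The 30 bases around each match are shown here, 5′ to 3′ on the strand of the gene, with the match in capitals, since they are the letters that differ between the genes.
HSPB1: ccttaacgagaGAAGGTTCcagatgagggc
HSPB8: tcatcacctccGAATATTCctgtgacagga
BAG2: tcgaccgatagGAACCTTCgcgtgggggga
SERPINH1: ttccaactTTCCAGAAGTTTCtcgggacgg
The HSPB1 stretch is chr7:76302480-76302509, with the match beginning 182 bases upstream of the start, and the HSPB8 stretch is chr12:119178832-119178861, with the match 88 bases upstream. The BAG2 stretch is chr6:57172191-57172220 (124 bases upstream) and the SERPINH1 stretch chr11:75562169-75562198 (76 bases upstream), and all 4 lie on the plus strand. In the GENCODE release 29 annotation, the HSPB8 and SERPINH1 stretches fall in untranslated regions of other transcripts of the same gene, while those of HSPB1 and BAG2 fall in none.

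BAG3, the BAG gene that bortezomib raised most, held neither pattern in its window, which was 78.0% G and C. Its sequence is shown for contrast from 250 to 11 bases upstream of the start, chr10:119651130-119651369 on the plus strand.
BAG3: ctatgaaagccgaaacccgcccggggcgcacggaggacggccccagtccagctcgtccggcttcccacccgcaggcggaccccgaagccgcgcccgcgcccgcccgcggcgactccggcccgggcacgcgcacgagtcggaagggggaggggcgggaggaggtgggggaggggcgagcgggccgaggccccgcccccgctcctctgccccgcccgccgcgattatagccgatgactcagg
BAG1, BAG5 and BAG6 also held neither pattern. A match describes letters and not a bound site, and the lack of one says only that these letters are not in this window.

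The first comparison asks what the Lo19S state does to these genes with the proteasome's core uninhibited. BAG2, whose product holds back CHIP, rose 1.91-fold in Lo19S cells, BAG3 rose 1.28-fold, HSPB8 1.18-fold and BAG6 1.11-fold, while SERPINH1 fell 1.14-fold. HSPB1, CRYAB, BAG1, BAG4 and BAG5 were not called. The counts of 4 higher and 1 lower among 10 stand beside 11.7% higher and 13% lower among all 14714 genes tested. Calls rest on edgeR's quasi-likelihood test, with Benjamini-Hochberg adjustment over all genes tested and a threshold of 0.05 on the adjusted p. The median log2 fold change was 0.14 over the 10 genes and -0.0043 over all genes.

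BAG2 measured 23.8, 25.8 and 20.4 CPM in control replicates 1 to 3 and 43.8, 43.3 and 47.0 in the Lo19S replicates. Each Lo19S library lay well above each control library (log2 fold change 0.93, SE 0.072, adjusted p = 7.95e-15). In the annotation, 2842 of the 6651 exon bases of BAG2 overlap those of RAB23 on the opposite strand, and whether counting used strand is not given in the sources used here. In raw counts, not scaled for depth, RAB23 went from 826 over the control DMSO libraries to 655 in Lo19S cells. BAG2 went from 812 to 1493. What the overlap adds to the counts of BAG2 was not tested.

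BAG3 gave 37.8, 40.0 and 41.5 CPM in the control libraries and 53.5, 50.4 and 47.8 in the Lo19S libraries, without overlap (0.35, SE 0.055, adjusted p = 1.39e-06). HSPB8, the small heat shock protein that BAG3 carries, was at 219.7, 237 and 233 CPM against 278, 268 and 270.3, also without overlap (0.24, SE 0.035, adjusted p = 3.67e-07). In SERPINH1 the control libraries gave 234, 236 and 262 CPM and the Lo19S libraries 218, 213 and 208 (-0.19, SE 0.040, adjusted p = 0.000179). For these 4 genes the 2 groups did not overlap, which held for 34.4% of all genes tested.

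BAG6, a scaffold that guards hydrophobic tail-anchored proteins before they reach the endoplasmic reticulum, passed with overlapping groups. Its control libraries were at 248.6, 249.7 and 288 CPM and its Lo19S libraries at 294, 289 and 285 (0.15, SE 0.041, adjusted p = 0.00596). The high control value was that of replicate 3, the library unlike its fellows. The call was lost without control replicate 1 (0.10, adjusted p = 0.0939) or replicate 2 (0.11, adjusted p = 0.0584), and the value was 0.22 without replicate 3 (adjusted p = 1.51e-09). BAG5 went the other way, at 88.7, 90.4 and 81.3 CPM in control cells and 77.2, 82.1 and 79.1 in Lo19S cells (-0.13, SE 0.050, adjusted p = 0.0518). It passed without control replicate 3, at -0.17 (adjusted p = 0.00164).

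HSPB1, which caps actin filaments and forms large oligomers, had the same replicate as its outlying value, with 766, 786 and 1034 CPM in control cells and 885, 874 and 804 in Lo19S cells. The Lo19S libraries lay inside the span of the control libraries, with a log2 fold change of -0.01 (95% interval -0.28 to 0.25) and of 0.14 without control replicate 3 (adjusted p = 0.237). CRYAB, alpha B crystallin of the lens and of muscle, had only 6, 10 and 8 counts per control library and 7, 13 and 8 per Lo19S library, so a difference could not be resolved (95% interval -0.52 to 1.06). The intervals were -0.19 to 0.03 for BAG1, which links HSP70 to the proteasome, and -0.05 to 0.32 for BAG4, a silencer of death receptors. A miss of the threshold does not show equal levels.

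**Figure D2:**
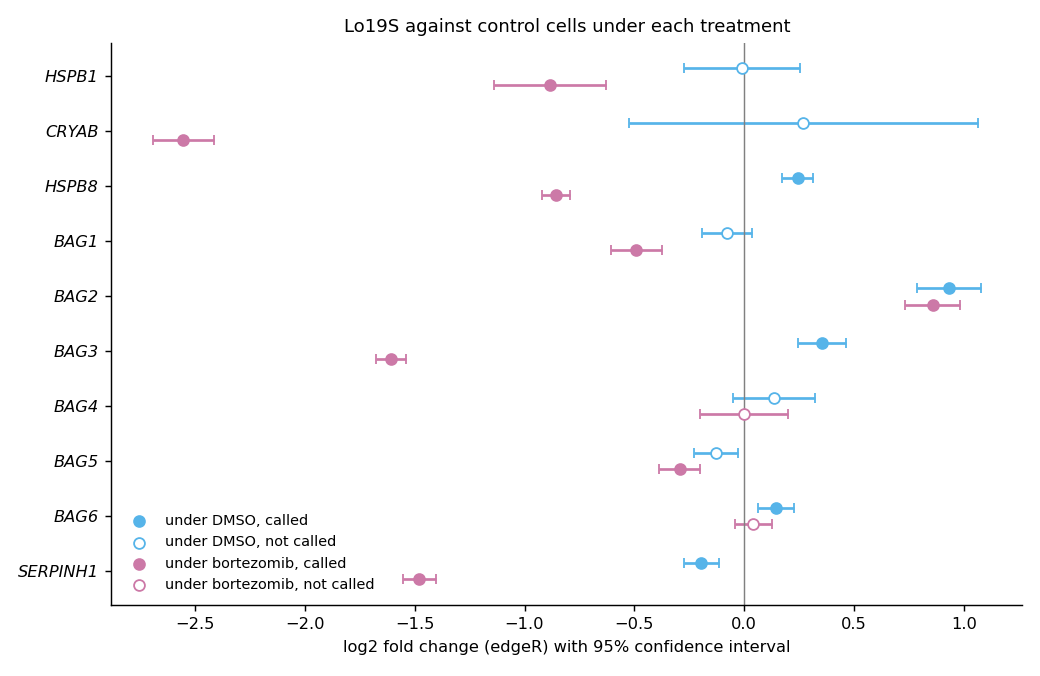
Log2 fold change of Lo19S against control cells for each of the 10 genes under DMSO and under bortezomib, with 95% confidence intervals from edgeR; filled points were called and open points were not. BAG2 lies near 0.9 under both treatments, and CRYAB, BAG3 and SERPINH1 lie below -1.4 under bortezomib alone.

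Bortezomib raised 9 of the 10 genes in control cells, beside 39.2% higher among all genes tested, and BAG4 alone was not called. CRYAB rose 200.7-fold, BAG3 50.3-fold, HSPB8 15.3-fold, HSPB1 6.56-fold, SERPINH1 4.58-fold and BAG2 2.14-fold, and these 6 make up the genes called at 2-fold or more, beside 14.5% of all genes. BAG5 (1.76-fold), BAG1 (1.37-fold) and BAG6 (1.20-fold) rose by less. By size of log2 fold change among the 14714 genes, CRYAB ranked 12 from the highest, BAG3 52 and HSPB8 164. The 3 bortezomib libraries lay above the 3 DMSO libraries for 10 of 10 genes. Among all genes the groups did not overlap for 81.1%, a share that counts both directions. Scaling to library totals in place of TMM shifts the median of all genes by -0.38 in this comparison and leaves 25.3% of all genes called higher (3717, against 5761 with TMM) and 57.4% lower (8452, against 6215).

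CRYAB went from 0.453, 0.931 and 0.743 CPM with DMSO to 141, 149 and 133 with bortezomib, from a total of 24 counts over the group to 3610. The log2 fold change was 7.65 (adjusted p = 1e-43). Its SE was 0.12 in edgeR and 0.304 in DESeq2's Wald test. HSPB2, which overlaps CRYAB on the opposite strand, had 1 count over the control DMSO libraries and 0 in the other 3 groups. HSPB8 went from 219.7 to 237 CPM up to 3497, 3566 and 3467 (3.93, SE 0.036, adjusted p = 1.75e-54). HSPB1 reached 5509, 5723 and 5715 CPM from at most 1034 (2.71, SE 0.12, adjusted p = 1.78e-08). Its processed pseudogenes HSPB1P1 and HSPB1P2 held at most 66 and 136 counts in a library, beside at least 7519 for HSPB1.

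BAG3 went from 37.8 to 41.5 CPM up to 2004, 2014 and 1974 (5.65, SE 0.044, adjusted p = 6.8e-57), so its 3 bortezomib libraries differed from each other by far less than from the DMSO libraries. BAG2 was at 47.3, 52.2 and 50.4 CPM (1.097, SE 0.074, adjusted p = 1.45e-18). In raw counts the overlapping RAB23 stood at 421 over these libraries, where BAG2 stood at 1279. BAG5, which holds several BAG domains and inhibits the ubiquitin ligase parkin, was at 154, 150.2 and 155 CPM (0.82, SE 0.048, adjusted p = 5.67e-21).

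The remaining BAG genes moved little, and the scaling decided the call of BAG1 and the direction of BAG4 and BAG6. BAG1 was at 102, 103 and 108 CPM with bortezomib against 72.9 to 82.5 with DMSO (0.45, SE 0.056, adjusted p = 4.16e-10), and with library totals the change was 0.07 and not called (adjusted p = 0.23). BAG6 was at 306, 318 and 315 CPM (0.26, SE 0.041, adjusted p = 2.28e-07), and with library totals it was lower, at -0.12 (adjusted p = 0.00612). BAG4 was at 18.1, 17.9 and 19.1 CPM against 15.7 to 16.8 (0.17, SE 0.098, adjusted p = 0.0953), and with library totals it was lower, at -0.21 (adjusted p = 0.0479). The 7 larger rises kept their direction and call with library totals.

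SERPINH1 stood at 1089, 1160 and 1104 CPM with bortezomib, above the 234 to 262 of the DMSO libraries (2.20, SE 0.038, adjusted p = 3.79e-42). Of the 18 genes listed for collagen folding and modification, 16 were tested, of which 9 rose and 5 fell in control cells (median log2 fold change 0.39), beside 39.2% higher and 42.2% lower among all genes. The prolyl hydroxylase subunits P4HA2 and P4HA1 rose by 2.32 and 1.10 on the log2 scale. The genes that fell were P3H4 (-2.24), FKBP10 (-1.56), CRTAP (-1.05), P3H3 (-0.67) and PLOD2 (-0.36). Among 12 collagen chain genes tested of 18 listed, 4 rose and 7 fell, beside the same shares of all genes. COL1A1, a main client of SERPINH1, went from a mean of 27.3 to 64.4 CPM (1.24, SE 0.069), and COL4A1 (3.57), COL6A2 (2.46) and COL16A1 (2.28) rose too, while COL12A1 went from 249 to 47.2 CPM (-2.40, SE 0.050). COL1A2, the partner chain of COL1A1, had 2 counts over each of the 2 control groups.

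**Figure D3:**
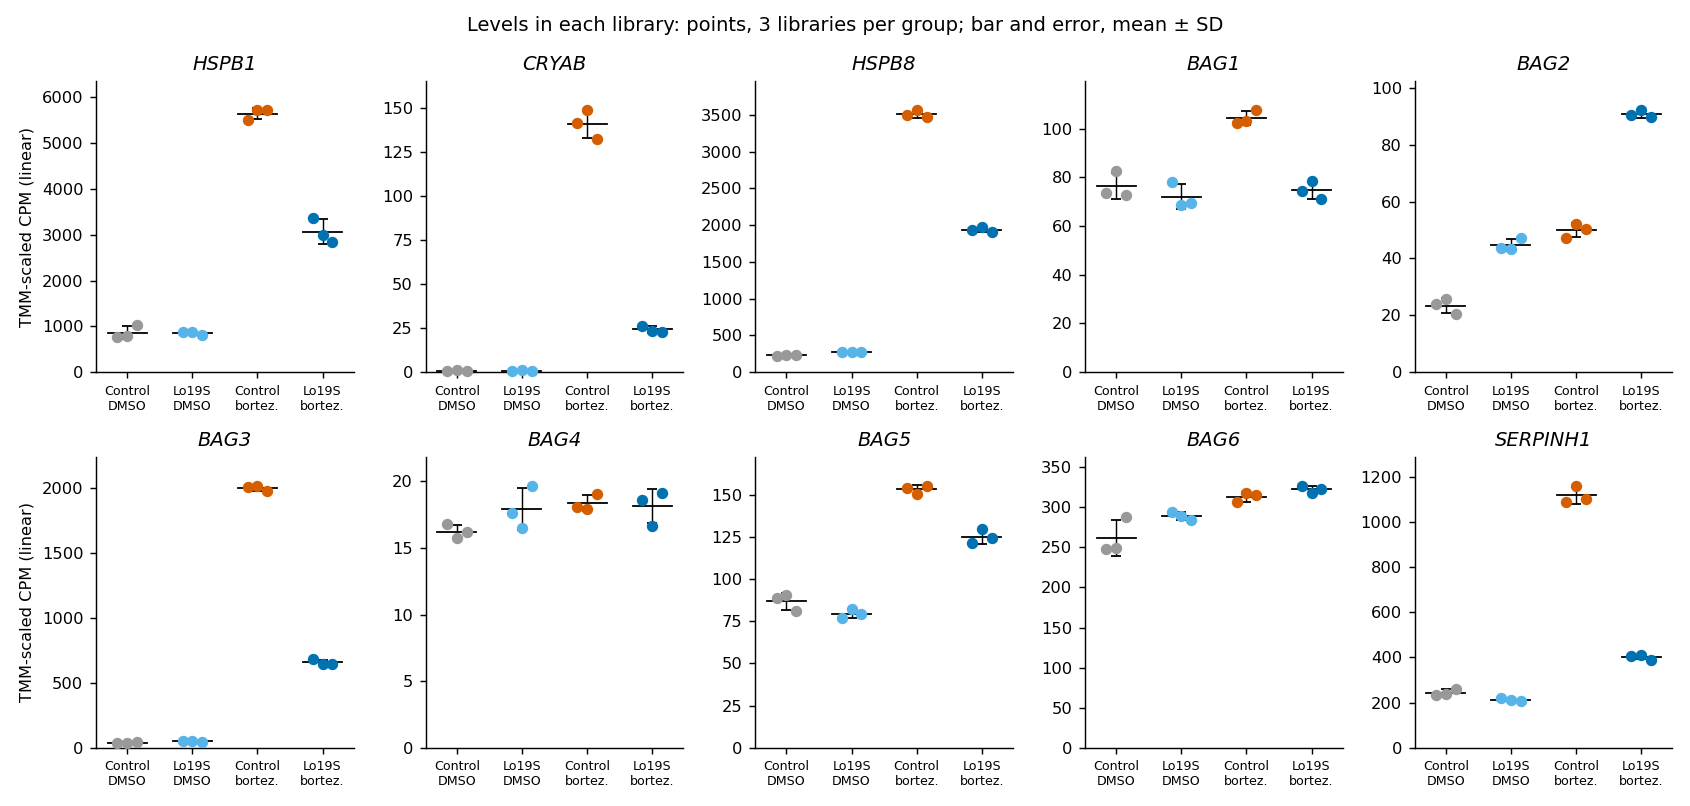
Level of each gene in each library, in TMM-scaled CPM on linear axes that begin at 0, with 3 libraries per group as points and the mean with its SD as black bars. In HSPB1, CRYAB, HSPB8, BAG3 and SERPINH1 the bortezomib libraries of control cells lie far above those of Lo19S cells, in BAG2 they lie below them, and in BAG4 the 4 groups lie between 15.7 and 19.7 CPM.

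In Lo19S cells bortezomib raised 8 of the 10 genes, beside 37.8% of all genes tested, and BAG1 and BAG4 were not called. CRYAB rose 28.4-fold, BAG3 12.9-fold, HSPB8 7.12-fold, HSPB1 3.58-fold and BAG2 2.03-fold, the 5 genes called at 2-fold or more beside 10.3% of all genes. SERPINH1 rose 1.88-fold, BAG5 1.57-fold and BAG6 1.11-fold. The groups did not overlap for 8 genes, where 79.2% of all genes did not. The median log2 fold change over the 10 genes was 0.97 here and 1.65 in control cells, beside medians of -0.02 and -0.04 over all genes.

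CRYAB reached 26.4, 23.4 and 22.8 CPM in Lo19S cells with bortezomib, from 0.558 to 1.12 with DMSO (4.83, SE 0.17 in edgeR and 0.287 in DESeq2, adjusted p = 4.48e-29). BAG3 reached 679.7, 647 and 642 CPM (3.69, SE 0.043, adjusted p = 1.21e-49), and HSPB8 1937, 1969 and 1909 (2.83, SE 0.035, adjusted p = 6.89e-49). HSPB1 was at 3364, 2984 and 2839 CPM (1.84, SE 0.12, adjusted p = 3.52e-07), spread more widely than in control cells with bortezomib. All of these values lay above each DMSO library of either state and below each library of control cells with bortezomib. SERPINH1 behaved likewise, at 406, 409.7 and 389.9 CPM (0.91, SE 0.040, adjusted p = 1.07e-25).

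BAG2 was at 90.4, 92.2 and 89.7 CPM in Lo19S cells with bortezomib, the highest of its 4 groups (1.02, SE 0.060, adjusted p = 1.63e-20). BAG5 was at 121, 129.6 and 124 CPM (0.65, SE 0.049, adjusted p = 9.69e-17). BAG6 was at 327, 318 and 323 CPM (0.16, SE 0.041, adjusted p = 0.000655), but at -0.13 with library totals (adjusted p = 0.00303). BAG1, at 74.4, 78.7 and 71.2 CPM, overlapped its DMSO libraries (0.04, 95% interval -0.08 to 0.16), and with library totals it was called lower, at -0.25 (adjusted p = 0.000157). BAG4, at 18.6, 16.7 and 19.1 CPM, was at 0.04 (95% interval -0.15 to 0.23), and at -0.25 with library totals (adjusted p = 0.0157). That scaling shifts the median of all genes by -0.29 in this comparison, with 25.4% called higher and 53.8% lower.

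**Figure D4:**
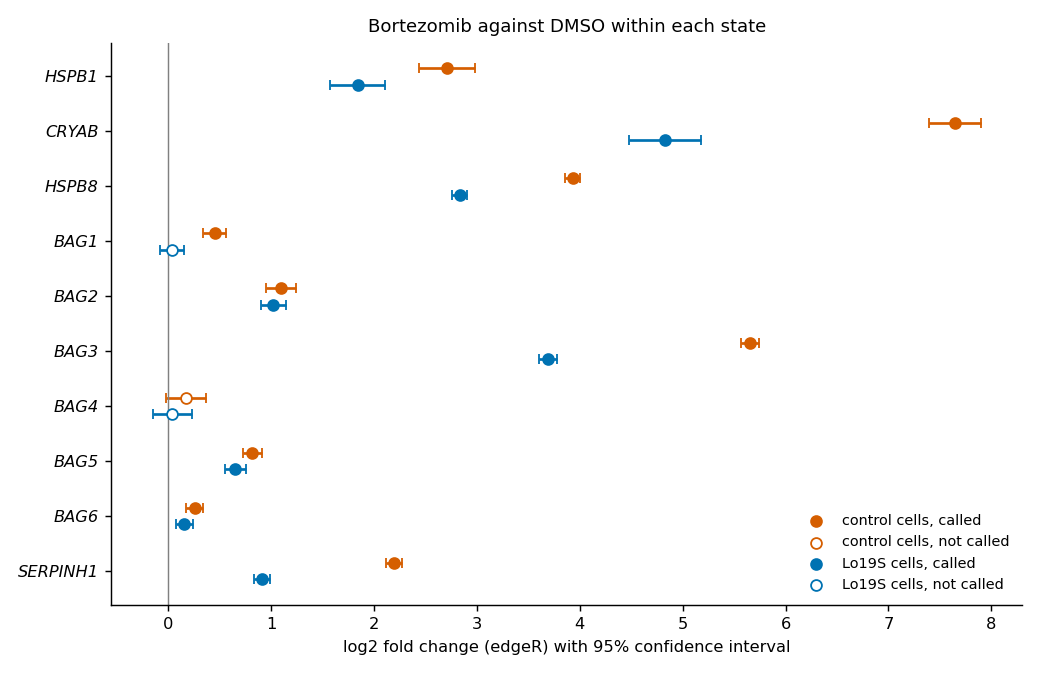
Log2 fold change of bortezomib against DMSO for each of the 10 genes in control cells and in Lo19S cells, with 95% confidence intervals from edgeR; filled points were called and open points were not. The control value exceeds the Lo19S value for each gene, by 2.82 for CRYAB, by 1.96 for BAG3 and by 0.07 for BAG2. The intervals of the 2 states overlap for BAG2, BAG4, BAG5 and BAG6. The CRYAB intervals rest on the edgeR SE, which is smaller than that of DESeq2.

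The direct test of the difference between both responses, an interaction term, found a smaller rise in Lo19S cells for 6 of the 10 genes, beside 13.4% called lower among all genes tested, and a larger rise for 0 of the 10, beside 14.4%. With library totals 6 were again called lower, beside 8.54% lower and 22.6% higher among all genes. The difference was -2.82 for CRYAB (SE 0.42, adjusted p = 8.15e-07), -1.96 for BAG3 (SE 0.064, adjusted p = 2.83e-28) and -1.28 for SERPINH1 (SE 0.055, adjusted p = 4.3e-24). It was -1.10 for HSPB8 (SE 0.047, adjusted p = 4.3e-24), -0.87 for HSPB1 (SE 0.16, adjusted p = 0.00365) and -0.41 for BAG1 (SE 0.080, adjusted p = 7.95e-05). Thus all 3 small heat shock genes, SERPINH1 and 2 of 6 BAG genes differed. Without control DMSO replicate 3 the value for HSPB1 was -1.02 (adjusted p = 0.000102). The median difference over the 10 genes was -0.64, beside 0.01 over all genes.

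The other 4 genes were not called in that test. The difference was -0.07 for BAG2 (95% interval -0.27 to 0.12), -0.13 for BAG4 (-0.41 to 0.14), -0.17 for BAG5 (-0.30 to -0.03, adjusted p = 0.0649) and -0.10 for BAG6 (-0.22 to 0.01). BAG5 passed without control DMSO replicate 2 (-0.19, adjusted p = 0.0394) and with DESeq2 size factors (-0.18, adjusted p = 0.0432). BAG6 passed without control DMSO replicate 3 (-0.17, adjusted p = 0.000488).

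With bortezomib in both states, 7 of the 10 genes were lower in Lo19S cells, beside 21.2% of all genes tested, and BAG2 was higher, beside 22%; with library totals these shares were 12.8% and 33.4%. CRYAB was 5.87-fold lower (-2.55, SE 0.069, adjusted p = 1.28e-32), BAG3 3.04-fold (-1.61, SE 0.034, adjusted p = 7.74e-37) and SERPINH1 2.79-fold (-1.48, SE 0.037, adjusted p = 9.56e-34). HSPB1 was 1.85-fold lower (-0.88, SE 0.11), HSPB8 1.81-fold (-0.86, SE 0.031), BAG1 1.41-fold (-0.49, SE 0.057) and BAG5 1.23-fold (-0.29, SE 0.047). From the highest value among the 14714 genes, BAG3 ranked 14631 in this comparison and CRYAB 14699. BAG2 was 1.81-fold higher (0.86, SE 0.062, adjusted p = 4.09e-16), beside 1.91-fold under DMSO. BAG4 (-0.00056, 95% interval -0.20 to 0.20) and BAG6 (0.04, 95% interval -0.04 to 0.12) were not called, and BAG6 was called higher with library totals (0.15, adjusted p = 0.00204). The groups did not overlap for the 8 called genes, where 52.9% of all genes did not.

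Levels across the groups thus took several orders. In HSPB1, CRYAB, HSPB8, BAG3, SERPINH1 and BAG5, control cells with bortezomib were highest, then Lo19S cells with bortezomib, then both DMSO groups. The DMSO groups of HSPB1, of CRYAB and of BAG5 overlapped. For BAG5 the steps were smaller, and the difference of its responses was not called. With TMM scaling, both bortezomib groups of BAG6 lay above both DMSO groups, with overlap within each treatment. BAG2 rose through control cells with DMSO (23.3 ± 2.70 CPM, SD, n = 3), Lo19S cells with DMSO (44.7 ± 2.02), control cells with bortezomib (49.96 ± 2.504) and Lo19S cells with bortezomib (90.8 ± 1.29), where the middle pair was close (43.3 to 47.0 against 47.3 to 52.2 CPM) and was not tested. BAG1 had 1 group above the rest, control cells with bortezomib (104 ± 2.87 CPM), and the other 3 overlapped. For BAG4, control cells with bortezomib lay above control cells with DMSO without overlap, a difference that was not called, and both Lo19S groups overlapped control cells with bortezomib.

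The partners of these proteins give the setting. Of 11 HSP70 and HSP110 genes, 11 rose with bortezomib in control cells and 11 in Lo19S cells (median log2 fold change 3.38 and 2.88). Among all genes tested, 39.2% and 37.8% rose. Under bortezomib 10 were lower in Lo19S than in control cells, beside 21.2% of all genes, HSPA13 being the exception (0.06, adjusted p = 0.229). The inducible HSPA6 went from a mean of 0.735 to 388 CPM in control cells (9.05) and to 79.2 in Lo19S cells (6.70), and HSPA1A and HSPA1B, near-identical copies whose split of reads is uncertain, rose by 6.53 and 6.66 in control cells. HSPH1, an exchange factor like most BAG proteins, rose by 5.004 in control cells and 3.87 in Lo19S cells. Of 8 nucleotide exchange factors outside the BAG family, 8 rose in control cells and 6 in Lo19S cells, beside the same shares. In Lo19S cells HSPBP1 (0.16, adjusted p = 0.0807) and SIL1 (-0.04, adjusted p = 0.607) were not called. The response was smaller in Lo19S cells for 6, beside 13.4% of all genes with a lower difference of responses. Of 14 HSP90 genes and co-chaperones, 13 rose in control cells and 12 in Lo19S cells, again beside 39.2% and 37.8%. In control cells 1, FKBP5, fell (-0.54, SE 0.045). Under bortezomib 11 of the 14 were lower in Lo19S than in control cells, beside 21.2% of all genes. The difference of responses was called lower for 8, beside 13.4%.

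Transcripts of the heat shock factors themselves moved less. HSF1 rose by 0.59 in control cells and 0.34 in Lo19S cells, and the difference of -0.24 (SE 0.076) was called. HSF2 rose by 1.06 and 0.93 (difference -0.14, adjusted p = 0.468), and HSF4 fell by 0.60 and 0.66. Among the other small heat shock genes, 7 of 8 were found in the files and 1 was tested, HSPB11, which despite its name is a component of cilium transport; it fell by 0.93 in control cells and by 0.44 in Lo19S cells. HSPB2, HSPB3, HSPB6, HSPB7, ODF1 and CRYAA held between 0 and 9 counts over the 3 libraries of a group, so HSPB1, CRYAB and HSPB8 were the small heat shock genes with appreciable RNA in the bortezomib libraries.

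In the route that BAG3 and HSPB8 serve, 9 of 12 genes rose and 2 fell with bortezomib in each state, beside 39.2% and 42.2% of all genes in control cells and 37.8% and 39.7% in Lo19S cells. In control cells HSPA8 rose by 3.56, GABARAPL1 by 3.39, MAP1LC3B by 3.33 and the cargo receptor SQSTM1 by 2.81. STUB1, the ubiquitin ligase of the complex, fell by 1.45 in control cells and 1.24 in Lo19S cells, and the deacetylase HDAC6 fell by 1.02 and 0.92. SQSTM1, like BAG3, was higher in Lo19S than in control cells with DMSO (0.76, SE 0.033), and unlike BAG3 it was also higher with bortezomib (0.24, SE 0.030). Under bortezomib 6 of the 12 were lower in Lo19S cells, among them FLNC (-0.85), HSPA8 (-0.77) and MAP1LC3B (-0.48), and 2 were higher, SQSTM1 and STUB1 (0.30). Among all genes tested, 21.2% were lower and 22% higher in that comparison.

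BAG6 works with UBL4A and GET4 in a complex. UBL4A fell by 1.42 in control cells and 1.11 in Lo19S cells, and GET4 was at -0.21 (adjusted p = 0.224) in control cells and fell by 0.86 in Lo19S cells. Of 10 genes of tail-anchored protein targeting, 6 rose and 2, UBL4A and UBQLN4 (-0.18), fell in control cells, beside 39.2% and 42.2% of all genes; UBQLN1 (1.67) and CAMLG (1.35) rose most. Among known partners of BAG1, BAG2, BAG4 and BAG5, BCL2, the partner that gave BAG1 its name, fell in control cells (-2.89), as did ESR1 (-3.12), LRRK2 (-1.69) and STUB1, while PINK1 rose (0.41). TNFRSF1A, the death receptor that BAG4 binds, was at 0.02 in control cells (adjusted p = 0.787) and rose by 0.48 in Lo19S cells.

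The genes with the most similar pattern to each of the 10 were found from the root mean square distance of log2 CPM profiles, each centred on its own mean, over the 12 libraries, with a prior count of 2 that draws low counts together. HSPB1 was nearest to CLU, which encodes the extracellular chaperone clusterin (distance 0.088, where the SD of HSPB1 over the libraries was 1.24), and then to NFKBIZ (0.143). BAG3 was nearest to DUSP1 (0.241, SD of BAG3 2.51) and HSPH1 (0.274). With DMSO, however, HSPH1 was lower in Lo19S than in control cells (-0.30, SE 0.042), where BAG3 was higher (0.35, SE 0.055). HSPB8 was nearest to the noncoding RNA NEAT1 (0.136, SD of HSPB8 1.80) and the HSP40 gene DNAJB4 (0.163). CRYAB was nearest to CALCA (0.256) and IL1RL1 (0.453), a likeness that can depend on the prior count, since counts with DMSO are few; the fitted response in control cells was 10.96 for CALCA and 7.98 for IL1RL1, beside 7.65 for CRYAB. SERPINH1 was nearest to MICB (0.167) and ADCY7 (0.169), and BAG2 to RFFL (0.173) and PARP4 (0.193). BAG5 followed KRT18 (0.042) and DDX24 (0.044) closely, with an SD of its own of 0.41. For BAG1 the nearest were ZNF676 (0.072) and MSMO1 (0.073), for BAG6 DNM2 (0.044) and SPINT1 (0.049), and for BAG4 NADSYN1 (0.065) and FAM219B (0.067), where the profile itself spans little (SD 0.10).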

How the data were processed

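RNA of 12 T47D libraries was measured by sequencing of TRIzol-extracted RNA with a stranded polyA kit, per the labels' protocols. The deposited files hold raw read counts per Ensembl gene made by the authors, with STAR 2.5.4b, featureCounts 1.6.1 and build GRCh37 named in the submitters' processing notes. How strand and reads matching several genes were handled is not given in the sources used here.

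Genes were matched to symbols for 51996 of 57773 identifiers. Counts were filtered with filterByExpr by group (14714 genes), scaled with TMM and fitted with 1 coefficient per group over 12 libraries with edgeR 4.0.16 (robust quasi-likelihood, R 4.3.3), with Benjamini-Hochberg adjustment over all genes tested in each of 5 comparisons. Calls need an adjusted p below 0.05. SEs were derived by dividing the size of the log2 fold change by the root of the F statistic and are approximate; 95% intervals use the test's degrees of freedom. The code was tested on simulated data for the comparison of Lo19S with control cells under DMSO only, without a simulated bortezomib effect. Exon lengths and overlaps come from GENCODE release 29, made for another build than the counts. Comparisons share groups, so their values are not independent.

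The 10 genes, the 15 other lists and the tests were chosen with earlier results of these data known. Named genes are the 10 genes, PSMD2, at most 4 called genes with the largest change per list, the genes behind counts of 5 or fewer, and the 2 nearest profiles per gene; genes beyond these, such as COL1A2 and TNFRSF1A or genes that overlap or copy the 10, were named after their values were seen. Some genes on the list of BAG partners, and the counts over that list, are not reported here. Alternatives were DESeq2 size factors, library totals, no filter, the DESeq2 1.42.0 Wald test, the compared groups alone, a replicate block and leaving out each library.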

Additional observations from a re-analysis of the deposited data

Results flagged for a closer look

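The bortezomib response differed between Lo19S and control cells by the interaction test for 6 of the 10 genes. The log2 difference, Lo19S minus control, was -2.82 for CRYAB, -1.96 for BAG3, -1.28 for SERPINH1, -1.10 for HSPB8, -0.87 for HSPB1 and -0.41 for BAG1. CRYAB has the widest interval of these, -3.67 to -1.97, with 24 and 28 counts over the DMSO groups, while BAG3, with 1378 and 1704, has -2.09 to -1.83. For BAG1 the difference comes with a rise in control cells that library totals reduce to 0.07, whereas in Lo19S cells that scaling gives -0.25.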

How the results depend on the processing

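Of 889 alternative values for the 10 genes, 875 kept their side of the threshold, with no called value among them changing direction. Another 3 lost the call and 6 gained one. The remaining 5 changed direction and were called in at least 1 of the settings compared. These 5 came with library totals: BAG4 at -0.21 and BAG6 at -0.12 with bortezomib in control cells, and BAG1 at -0.25, BAG4 at -0.25 and BAG6 at -0.13 in Lo19S cells. Both BAG6 values were called in each setting, higher with TMM and lower with library totals. With that scaling 7 of the 10 genes were higher and 2 lower with bortezomib in control cells, and 7 higher and 3 lower in Lo19S cells. BAG1 lost its call there in control cells, and BAG5 under DMSO gained one with no filter (-0.15, adjusted p = 0.0446, edgeR). The 889 alternatives include fits that left out a library outside the groups compared. Such fits alter only the shared filter, scaling and spread and could hardly change a call, so the 875 overstates the stability. The number of the 10 genes called ranged, with 1 library left out, from 4 to 6 for Lo19S against control under DMSO and from 6 to 7 for the difference of responses, and stayed at 9, 8 and 8 in the other comparisons. Over all genes the total number called stayed within 1.5 times under every alternative run, but library totals moved the split of higher and lower calls. Higher calls made up 48.1% of all calls with bortezomib in control cells and 30.5% with library totals, 48.7% and 32% in Lo19S cells, 50.9% and 72.3% for Lo19S against control under bortezomib, and 51.9% and 72.6% for the difference of responses. No shared effect of the replicate number was seen, as 18 correlations of same-numbered libraries ran from -0.07 to 0.03. These correlations cannot show whether the libraries were prepared in pairs. With a replicate block 5, 9, 8, 8 and 6 of the 10 genes were called in the 5 comparisons, as without it. Depth limits CRYAB under DMSO, and SEs and intervals cover these libraries only.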
